A study of Homo sapiens with 12 samples.

Results

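C3AR1, the receptor for the complement fragment C3a, was examined in A375 cells together with 7 other genes of the complement system, C3, C1R, C1S, CD46, CD55, CD59 and SERPING1. These 8 genes, of 29696 with expression values, were chosen from earlier results of the same comparison, so their differences between groups are given as a description and without a p-value. A375 is an established human melanoma cell line. The cells carried either a short hairpin RNA against ALKBH5 (shALKBH5, labelled as ALKBH5 knockdown) or a control hairpin (shCtrl, labelled as wild type). ALKBH5 is an enzyme that removes m6A, a methyl mark on adenosines of RNA. Both hairpins were delivered by lentivirus, and the sources used here do not state which ALKBH5 hairpin was sequenced. The labels name no other treatment, the methods describe puromycin selection of infected cells in general, and the same line and delivery were shared by both groups. For RNA-Seq the methods give a harvest time after infection that is earlier than the end of that selection. Each group had 3 libraries of input RNA, sequenced as RNA-Seq, and 3 libraries of RNA pulled down with an m6A antibody (IP), sequenced as MeRIP-Seq. The methods say in general that experiments were repeated independently, but neither they nor the labels say whether the 3 libraries of a group came from separate cultures, so p-values measure the spread between these samples, which may be technical.

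Complement is a cascade of plasma and cell surface proteins in which proteases, started by antibody, lectins or spontaneous turnover, cleave C3 into C3a and C3b. C3a signals through the receptor encoded by C3AR1, while C3b marks surfaces and leads to a membrane attack pore. Most soluble components are made in the liver, whereas nucleated cells, tumor cells included, carry membrane regulators that protect them from their own complement.

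ALKBH5 itself was lower in every shALKBH5 library, where replicates 1, 2 and 3 held 3.39, 3.92 and 3.12 FPKM (fragments scaled by transcript length and library size), than in shCtrl, with 19.3, 17.8 and 17.6 FPKM. Libraries summed to between 212760 and 223231 FPKM and held 10624 to 10946 genes at 1 FPKM or more. Correlations of log2 values were 0.981 to 0.984 within groups and 0.929 to 0.934 between them. Among melanoma markers SOX10 was high in both groups (181 ± 0.754 and 184 ± 6.81 FPKM, SD, n = 3), while the pigment genes TYR and DCT were near 0 and MLANA had no value. The panel was not stable, since S100B (82.1 against 32.9 FPKM) and S100A1 (4.43 against 1.86 FPKM) were called higher in shALKBH5 cells. MITF (1.26 against 0.777 FPKM, adjusted p = 0.0475 by limma) was called with libraries that overlapped between the groups, and PMEL, which missed the filter described next, was at 0.611 and 0.237 FPKM. Only genes that averaged 0.5 FPKM or more across the 6 input libraries were tested, with limma on log2(FPKM + 0.1), which left 12985 genes. All log2 fold changes below are shALKBH5 minus shCtrl on this scale, which understates the change of low genes. In bulk RNA, fewer cells that express a gene and less RNA per cell cannot be told apart.

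Of the 8 complement genes, 6 passed the filter on low values and C1S and SERPING1 did not. At an adjusted p under 0.05, 4 of them were called higher in shALKBH5 cells (C3AR1, C3, CD55 and CD59), where 34.7% of all tested genes were called higher. C1R and CD46, 2 in all, were called lower, where 26.2% of all tested genes were. The 2 groups did not overlap in 6 of the 6, and in 67% of all tested genes. Since this contrast chose the genes, nothing is read from these counts. Their median log2 fold change was 0.50, beside 0.09 over all tested genes.

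**Figure D1:**
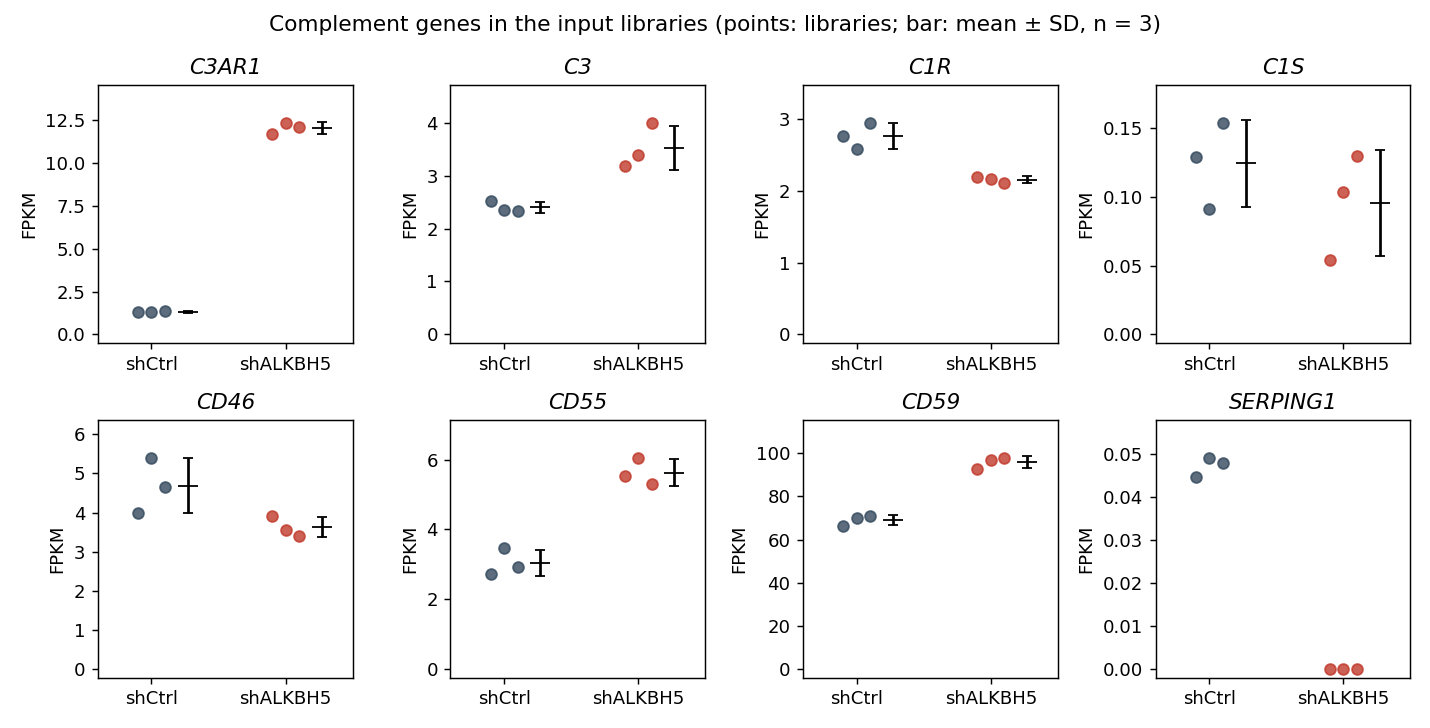
FPKM of each of the 8 complement genes in the 3 shALKBH5 and 3 shCtrl input libraries, on linear axes from 0 with a scale per gene. Points are libraries in the order of their numbers and bars are the mean ± SD, left out for SERPING1. C3AR1 lay between 11.7 and 12.3 FPKM in shALKBH5 and between 1.29 and 1.36 FPKM in shCtrl libraries, while C1S and SERPING1 were near 0 in both groups.

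The receptor gene C3AR1 (ENSG00000171860, chromosome 12, 8056844 to 8066359, minus strand in the files' coordinates) encodes a G protein-coupled receptor best known from myeloid cells. Replicates 1, 2 and 3 of shALKBH5 held 11.7, 12.3 and 12.1 FPKM, and those of shCtrl 1.30, 1.29 and 1.36 FPKM. Every shALKBH5 library was far above every shCtrl library, and replicates of a group lay close together. The means were 12.0 ± 0.341 and 1.32 ± 0.0375 FPKM (SD, n = 3), a ratio of 9.15. The log2 fold change was 3.10 (SE 0.0594), the largest of the 8 genes and rank 16 from the top among the 12985 tested genes. Leaving out any library gave 3.08 to 3.12.

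Markers of leukocytes were checked because these cells are a main source of the receptor. Of 10 markers, 6 had values, with summed levels of 5.34 to 6.12 FPKM in shALKBH5 and 1.40 to 1.74 FPKM in shCtrl libraries. Most of the sum was LYZ, the gene of lysozyme, at 4.82 ± 0.340 and 0.874 ± 0.120 FPKM (SD, n = 3). The macrophage markers CD14 (0.168 and 0.111 FPKM), CSF1R (0.125 and 0.0706 FPKM) and SPI1 (0.121 and 0.0920 FPKM) were near 0 in both groups, as was CD163. PTPRC, AIF1, TYROBP and CD3E had no value. FCER1G was at 0.401 and 0.396 FPKM. The part of these markers in the level of C3AR1 was not tested.

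C3 (ENSG00000125730, chromosome 19, 6677704 to 6730562, minus strand) encodes the protein from which the C3AR1 ligand C3a is cut. Its level in replicates 1, 2 and 3 was 3.18, 3.39 and 3.99 FPKM with shALKBH5 and 2.52, 2.36 and 2.32 FPKM with shCtrl. The groups did not overlap, and shALKBH5 replicate 3 was the highest. The log2 fold change was 0.53 (SE 0.0972, ratio of means 1.47), far below that of the receptor gene. Consequently, C3 was above C3AR1 in shCtrl cells (2.40 against 1.32 FPKM) and below it in shALKBH5 cells (3.52 against 12.0 FPKM). The span of C3 shares 649 bases with GPR108 on the same strand in the files' gene spans, and the counting rule is not stated. GPR108 was at 20.9 and 21.7 FPKM.

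The proteases of the C1 complex, C1R and C1S, were not higher in shALKBH5 cells. C1R (ENSG00000159403, chromosome 12, 7080214 to 7092540, minus strand), the protease that activates C1s, was at 2.19, 2.16 and 2.11 FPKM in shALKBH5 and 2.76, 2.58 and 2.94 FPKM in shCtrl replicates. All shCtrl libraries were higher, and the log2 fold change was -0.34 (SE 0.0779). C1S (ENSG00000182326, chromosome 12, 6988259 to 7071032, plus strand), which cleaves C4 and C2, was at 0.0541, 0.104 and 0.130 FPKM in shALKBH5 and 0.129, 0.0909 and 0.154 FPKM in shCtrl replicates. These values overlapped and lay below the filter. C1R and C1S are neighbors on chromosome 12 that are often expressed together, and here C1R was more than 10 times higher per length than C1S in both groups. The span of C1S shares 9170 bases with EMG1 on the same strand (16.2 and 13.0 FPKM) and 30219 bases with LPCAT3 on the other, so its level is uncertain. Fibroblast markers, with 6 of 6 measured, summed to 5.57 to 6.76 FPKM in shALKBH5 and 8.79 to 9.75 FPKM in shCtrl libraries. The lower sum was that of PDGFRB (2.73 against 7.25 FPKM), and without it the other 5 summed to 2.93 to 4.10 and 1.81 to 1.91 FPKM, in the other direction. LUM (2.61 against 1.16 FPKM), COL1A1 (0.552 against 0.451 FPKM) and DCN (0.291 against 0.187 FPKM) had higher means in shALKBH5 cells, and COL1A2 and COL3A1 were near 0. Their part in the level of C1R was not tested.

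SERPING1 (ENSG00000149131, chromosome 11, 57597387 to 57614848, plus strand) encodes C1 inhibitor, which inactivates C1r and C1s. It was listed at 0 in each of the 3 shALKBH5 libraries, whereas shCtrl replicates 1, 2 and 3 held 0.0448, 0.0492 and 0.0480 FPKM. No fold change is given against a group listed at 0, and the depth behind the values is unknown.

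The 3 membrane regulators moved in different directions. CD55 (ENSG00000196352, chromosome 1, 207321532 to 207386804, plus strand), the decay accelerating factor that takes C3 convertases apart, was at 5.53, 6.05 and 5.30 FPKM in shALKBH5 and 2.73, 3.46 and 2.93 FPKM in shCtrl replicates. The groups were well apart, with a log2 fold change of 0.87 (SE 0.0994) and a ratio of means of 1.85. CD59 (ENSG00000085063, chromosome 11, 33703010 to 33736479, minus strand), which blocks the assembly of the membrane attack pore, was at 92.7, 97.1 and 97.9 FPKM in shALKBH5 and 66.5, 69.8 and 70.9 FPKM in shCtrl replicates. It was the most abundant of the 8 genes in both groups, at percentile 96.8 of all tested genes, and its log2 fold change was 0.47 (SE 0.0410). The span of CD59 shares 19458 bases with AL049629 on the same strand (15.2 and 17.4 FPKM), so its level is uncertain where reads could be split.

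CD46 (ENSG00000117335, chromosome 1, 207752054 to 207795513, plus strand) is the cofactor with which factor I cuts C3b and C4b. It was at 3.91, 3.55 and 3.41 FPKM in shALKBH5 and 3.99, 5.40 and 4.66 FPKM in shCtrl replicates. The highest shALKBH5 and the lowest shCtrl library nearly touched, and shCtrl varied more, with an SD of 0.704 beside 0.258 FPKM (n = 3). The log2 fold change was -0.35 (SE 0.114). The call of CD46 was lost without shALKBH5 replicate 2 (-0.34), shALKBH5 replicate 3 (-0.31), shCtrl replicate 2 (-0.25) or shCtrl replicate 3 (-0.35). The call was also lost with no filter on low values and with a replicate block.

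**Figure D2:**
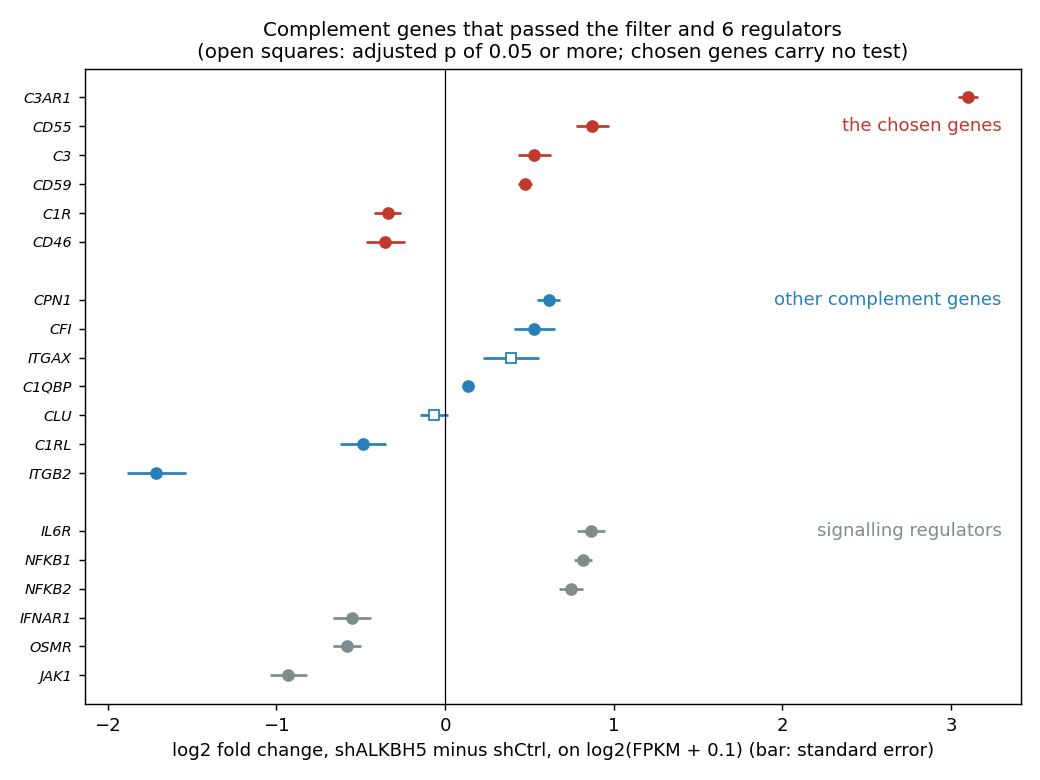
Log2 fold change (shALKBH5 minus shCtrl, log2(FPKM + 0.1) scale) of the 6 chosen complement genes that passed the filter and of the tested genes of the wider complement list, with the 3 called regulators of largest increase and the 3 of largest decrease, with bars of 1 SE. Open squares are list genes that did not pass an adjusted p of 0.05. C3AR1 lay at 3.10 and, at the pseudocount of 0.1, ITGB2 at -1.71.

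The order of the levels differed between the groups, in the place of C3AR1 and also for CD46 against CD55 and C1R against C3. In shCtrl cells it ran from CD59 through CD46, CD55, C1R and C3 to C3AR1, C1S and SERPING1. In shALKBH5 cells C3AR1 stood second, between CD59 and CD55, and was followed by CD46, C3, C1R, C1S and SERPING1. Libraries of neighboring genes in the order overlapped for CD55 and C1R in shCtrl and for CD46 and C3 in shALKBH5 cells, and for no other neighbors.

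Of a wider list of 45 complement genes without these 8, 30 had values, 21 of which were under 0.5 FPKM in every library, and 7 were tested. In limma's test with Benjamini-Hochberg adjustment over all genes, 3 were higher, 2 were lower and 2 did not pass, beside 34.7% higher and 26.2% lower over all tested genes. The median log2 fold change was 0.14 beside 0.09 over all tested genes. CPN1, the catalytic subunit of the carboxypeptidase that inactivates C3a, rose from 3.52 ± 0.258 to 5.42 ± 0.110 FPKM (log2 fold change 0.61, SE 0.0696, adjusted p = 0.00021). CFI, the protease factor I that works with CD46, rose from 1.92 ± 0.288 to 2.80 ± 0.252 FPKM (0.53, SE 0.123, adjusted p = 0.0073). C1QBP, a mitochondrial protein that binds C1q, rose from 164 ± 2.08 to 180.1 ± 0.774 FPKM (0.14, SE 0.0303, adjusted p = 0.0056), but this call was lost after rescaling of the libraries (0.06, adjusted p = 0.267). ITGB2, the shared beta chain of complement receptors CR3 and CR4, fell from 1.15 ± 0.131 to 0.282 ± 0.0464 FPKM (-1.71, SE 0.173, adjusted p = 0.00012). ITGB2 passed the filter of 0.5 FPKM only through its shCtrl level, since its shALKBH5 mean lay below that limit. Since ITGB2 was low, its fold change depended on the pseudocount, with -0.74 at 1 and -1.995 at 0.01. C1RL, a C1r-like protease gene, fell from 2.30 ± 0.134 to 1.63 ± 0.306 FPKM (-0.49, SE 0.136, adjusted p = 0.016), and its span overlaps that of C1R by 2954 bases on the same strand. ITGAX, the alpha chain of CR4, had a log2 fold change of 0.39 (SE 0.168, adjusted p = 0.079), and CLU, the fluid phase regulator clusterin, of -0.06 (SE 0.0824, adjusted p = 0.52). At a pseudocount of 1 ITGAX was at 0.16. CLU was at -0.14 after rescaling and between -0.116 and -0.005 with any library left out. The receptors of the related fragment C5a stayed below the filter, with C5AR1 at 0.144 and 0.113 FPKM and C5AR2 at or near 0.

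Receptors, kinases and transcription factors known to act on complement gene expression were then examined. Of 20 such genes 19 were tested, 7 were higher, 5 were lower and 7 did not pass, with a median log2 fold change of 0.11. These shares are near those of all tested genes, of which 34.7% were higher and 26.2% lower, and the counts are no result particular to the regulators. The largest increases were those of the interleukin-6 receptor gene IL6R (2.16 to 4.02 FPKM, log2 fold change 0.87, adjusted p = 8.7e-05 by limma) and the NF-kappaB subunit genes NFKB1 (14.3 to 25.3 FPKM, 0.82, adjusted p = 1.1e-05) and NFKB2 (20.7 to 34.8 FPKM, 0.75, adjusted p = 9.1e-05). The largest decreases were those of the kinase gene JAK1 (5.08 to 2.60 FPKM, -0.93, adjusted p = 0.00027 by limma), the oncostatin M receptor gene OSMR (11.8 to 7.78 FPKM, -0.58, adjusted p = 0.00072) and the interferon receptor gene IFNAR1 (3.14 to 2.10 FPKM, -0.55, adjusted p = 0.0041). IRF1, an interferon response factor gene, had a log2 fold change of -0.16 (adjusted p = 0.17 by limma).

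The promoters of the 8 complement genes were searched for short letter patterns known from binding of transcription factors, and those windows with a match before the start are shown. RefSeq windows (GRCh38.p14) from 250 bases before to 50 after each start were found for 5 of the 8 genes, namely C3AR1, C1R, CD46, CD55 and CD59, and not for C3, C1S and SERPING1. Both strands were searched for the AP-1 letters TGACTCA (in 4.95% of 35116 windows of all genes), the STAT letters TTCNNNGAA (7.66%), the interferon element GAAANNGAA (8.11%), the cAMP element TGACGTCA (1.85%) and the E-box CACGTG (7.26%), which MITF can bind. The patterns were chosen with the expression results known, and those of NF-kappaB and C/EBP were not searched. The windows below run 5′ to 3′ on the gene's strand, all of them minus, with the matching letters in capitals:
C3AR1, AP-1, chr12:8066475-8066504: gccatttagaaaTGACTCActttgaaactc
C1R, STAT, chr12:7091961-7091990: agccagtcctaTTCCTGGAAggggagggga
CD59, STAT, chr11:33736589-33736618: gccacccggccTTCTCAGAAcctgggccag
CD59, AP-1, chr11:33722733-33722762: acagtggctataTGAGTCAatttgctcata

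In C3AR1 the AP-1 letters stood at -133 to -127 from the start of the gene, and none of the other letters searched was found before the start. In C1R the STAT letters stood at -86 to -78 from the second of its RefSeq starts. CD59 held STAT letters at -128 to -120 from the first of its starts, and AP-1 letters, read on the other strand, at -23 to -17 from the fourth. The windows of CD46 and CD55 held none of the 5 sets of letters before the start. A match is a description of the sequence and not a binding site, and no binding was measured.

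The genes whose profile over the 6 input libraries was most like that of C3AR1, by the distance between centered log2 values, were SLAMF9 (0.183), INMT (0.283), NCEH1 (0.425), MUC13 (0.504) and UBD (0.508). SLAMF9, a SLAM family receptor gene, was at 24.8 ± 0.661 and 2.97 ± 0.302 FPKM in shALKBH5 and shCtrl cells (SD, n = 3). INMT, an indolethylamine methyltransferase gene, was at 19.8 ± 0.667 and 1.88 ± 0.0738 FPKM. UBD, which encodes the ubiquitin-like protein FAT10, was at 10.2 ± 1.02 and 1.34 ± 0.278 FPKM. NCEH1, a cholesterol ester hydrolase gene, and MUC13, a membrane mucin gene, were lower, at 3.66 and 0.438 FPKM and at 2.04 and 0.184 FPKM. Their log2 fold changes depended on the pseudocount, with 1.69 and 1.36 at 1 and 3.04 and 3.44 at 0.01. The distances were computed at a pseudocount of 0.1 only.

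The genes next to C3AR1 on chromosome 12 did not share its size of change. Among the 10 nearest tested genes, 5 on each side, the median log2 fold change was 0.13 and the range was -0.22 to 1.17. The nearest, FOXJ2, a forkhead factor gene 1.33 kb from the end of C3AR1 and on the other strand, was at 4.18 and 3.72 FPKM (0.17, SE 0.0796, adjusted p = 0.10 by limma). With any library left out, the log2 fold change of FOXJ2 lay between 0.093 and 0.216, and after rescaling it was 0.097. NECAP1, a clathrin adaptor gene that begins 10.6 kb from the start of C3AR1 on the other strand, was higher in shALKBH5 cells, at 10.1 ± 0.687 against 4.45 ± 0.218 FPKM (SD, n = 3). Its log2 fold change was 1.17 (SE 0.0685, adjusted p = 8.9e-06 by limma) and lay between 1.11 and 1.21 with any library left out. For the other complement genes the median of the 10 nearest tested genes ranged from -0.29 at C3 to 0.34 at SERPING1.

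**Figure D3:**
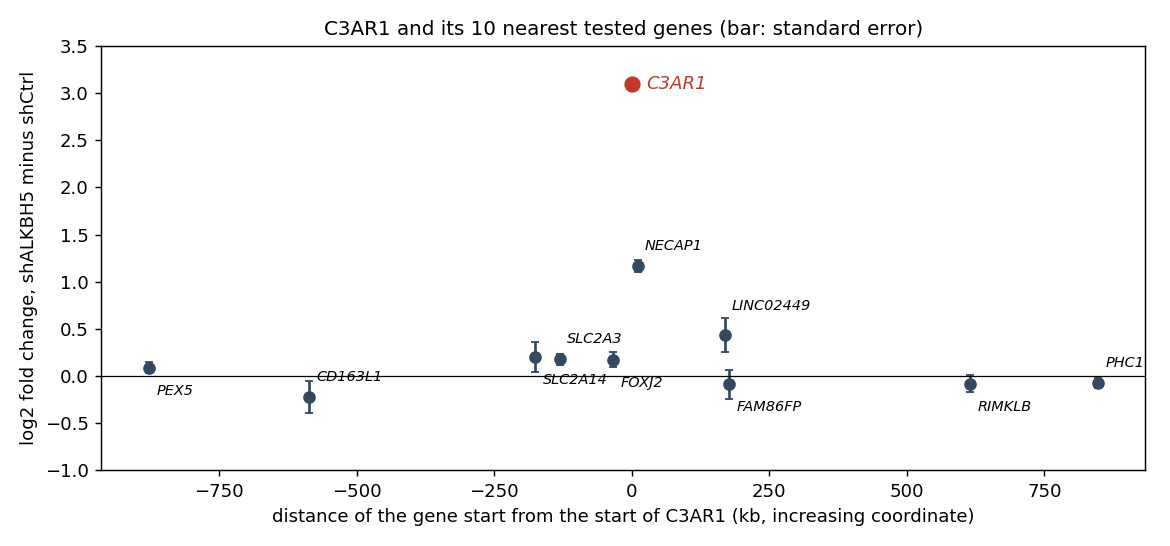
Log2 fold change (shALKBH5 minus shCtrl) of C3AR1 and its 10 nearest tested genes against the distance of their starts in kb, with bars of 1 SE. C3AR1 lay at 3.10 and NECAP1 at 1.17, while the other 9 genes lay between -0.22 and 0.43.

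The m6A peaks of the 8 genes were described from the peak list of each group, in which each peak comes with its enrichment over input as a fold. There was 1 list per group, so no fold enrichment has a replicate error and none was tested. Peak spans include introns. Of the 8 genes, 7 held 18 peaks in the shALKBH5 list and 7 held 15 peaks in the shCtrl list, with 13 and 9 of these in 3′UTRs, beside 45.5% and 46.2% of all peaks of the lists. Of the shALKBH5 peaks 83.3% overlapped a peak of the same gene in the shCtrl list, and of the shCtrl peaks 93.3% overlapped one in the shALKBH5 list, beside 77.4% and 80.4% over all peaks. No difference from all peaks was tested. The median fold enrichment was 3.56 and 6.70, beside 5.31 over all 46039 peaks of the shALKBH5 list and 5.25 over all 44304 peaks of the shCtrl list. These medians of the 8 genes are over different sets of peaks. For peaks matched between the lists, the median ratio of shALKBH5 over shCtrl was 0.919.

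C3AR1 held 2 peaks in each list at nearly the same places. The 3′UTR peak spanned 8058335 to 8058962 in shALKBH5 with a fold enrichment of 7.10, and 8058365 to 8058932 in shCtrl with 8.57. The second peak, annotated to the 5′UTR, reached from 8059350 to 8066329 in shALKBH5 with a fold enrichment of 3.10, and to 8066359 in shCtrl with 4.75. Both peaks were thus present at both levels of the transcript, with a lower fold enrichment where C3AR1 was higher. Among all peaks of their list, the 3′UTR peak was at percentile 61.3 in shALKBH5 and 71.4 in shCtrl, and the second peak at 28.0 and 45.2.

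C1R had 1 peak in its 3′UTR in each list, with fold enrichments of 9.29 in shALKBH5 and 11.3 in shCtrl. C1S, at about 0.1 FPKM, was listed with 3 and 2 peaks in its 3′UTR, of which the last had fold enrichments of 9.19 and 16.2. C3 had a 3′UTR peak with 6.79 and 7.39, a peak annotated to the 5′UTR with 2.45 and 2.13, and an intronic peak in each list that matched less well. In shCtrl the 5′UTR and intronic peaks of C3 missed that FDR (log10 FDR -1.57 and -0.627). CD59 had 5 peaks in each list, several of which lay within each other, with fold enrichments of 2.71 to 3.67 in shALKBH5 and 1.13 to 3.60 in shCtrl. The value of 1.13 was that of an intronic peak.

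For CD55 an exonic peak was in both lists, with fold enrichments of 8.78 and 6.93, and 2 peaks in the 3′UTR were only in the shALKBH5 list (2.27 and 5.51), the latter with a log10 FDR of -1.53. CD46 had a single intronic peak, in the shALKBH5 list (4.90), with a log10 FDR of -0.742, and SERPING1 a single peak annotated to the 5′UTR, in the shCtrl list (10.2), with a log10 FDR of -1.19. None of these last 3 peaks reached an FDR of 0.01.

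Of peaks of the 8 genes, 11 in each list matched by a reciprocal overlap of 50%. The fold enrichment was lower in shALKBH5 for 8 of these 11 pairs and higher for 3, beside 54.5% lower over the 24739 such pairs of all genes. The 11 pairs are not independent, since 4 belong to CD59. The median ratio of fold enrichments, shALKBH5 over shCtrl, was 0.919 for the 11 pairs and 0.966 for all pairs. In the list of peaks that the authors compared between groups, C3AR1 and CD59 were present with 2 peaks each, and the other 6 genes with none. The share of all genes in that list was not counted, so nothing is read from presence or absence in it.

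**Figure D4:**
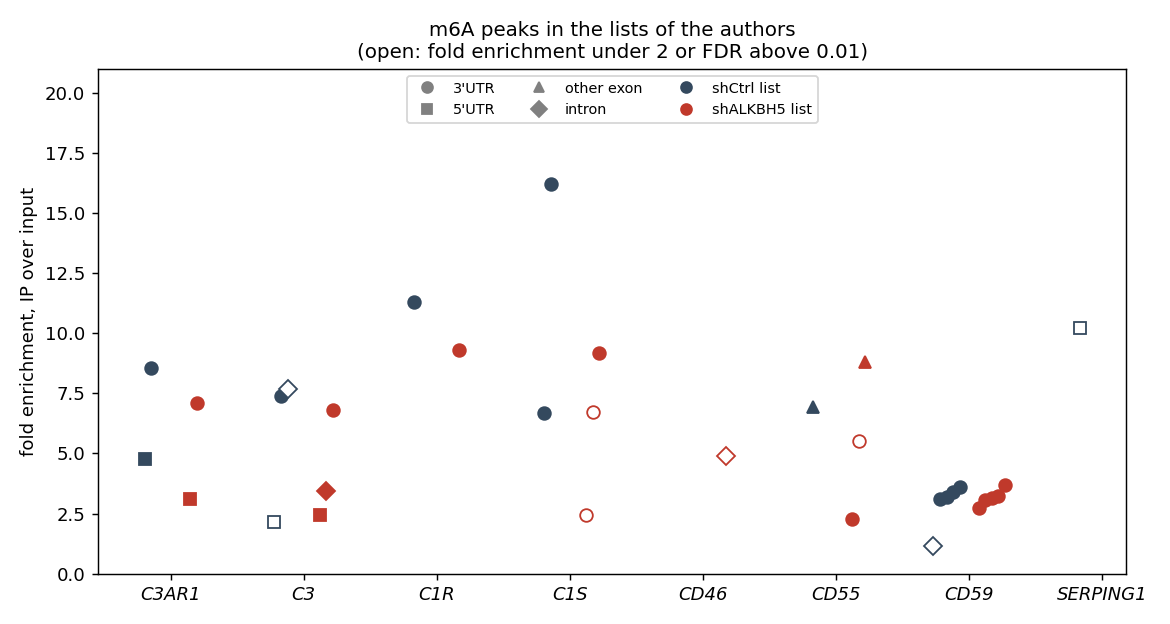
Fold enrichment (IP over input, linear axis from 0) of the m6A peaks of the 8 complement genes in the shALKBH5 and shCtrl peak lists, 1 point per peak, with shapes for the annotated region and open points for a fold enrichment under 2 or an FDR above 0.01. The 2 peaks of C3AR1 lay at 7.10 and 3.10 in shALKBH5 and at 8.57 and 4.75 in shCtrl.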

How the data were processed

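A375 cells with shALKBH5 or shCtrl were profiled by RNA-Seq of input and by MeRIP-Seq, with 3 input and 3 IP libraries per group, grouped by their labels. The authors deposited FPKM per input library, and the aligner is not given in the sources used here. The methods name edgeR for quantifying expression, without a version or a counting rule. The labels describe dUTP for libraries of IP RNA, and the strand setting of the counting is not stated. For peaks, the authors deposited a single list for each group that gives a fold (the ratio of IP to input) per peak. The deposited log10 p and log10 FDR were treated as a score, since some are infinite. Columns with the authors' own comparisons hold fold changes, p-values and FDR and were not used, and of the list of compared peaks only positions and gene names were read. The labels name mm10, a mouse build, while gene IDs and coordinates are human. For 97.5% of 21697 genes matched by name, the start or end lay within 1000 bases of RefSeq GRCh38.p14.

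After 0.1 was added to the FPKM, their log2 values were fitted by limma 3.58.1 (lmFit, and eBayes with trend) under R 4.3.3. P-values are two-sided and were adjusted by Benjamini-Hochberg over the 12985 genes that averaged 0.5 FPKM or more. SE are limma's. Tables and plots were made with pandas 2.3.3, matplotlib 3.10.9 and numpy 2.4.6 in Python 3.11.15. The test was tested on simulated data. Low FPKM showed no steps (the most common ratio of replicates made up 0.169% and 0.152% of low values), so the depth per library is unknown. No 2 libraries shared their values, and each counted as 1 replicate. Peak starts, which count from 0, were changed to count from 1, and an overlap of 1 bp on the strand of the gene counted as shared.

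The 8 genes, the lists of complement, regulator and marker genes and the motifs were chosen with earlier results of these data known. Genes named were the 8, ALKBH5, tested genes of the complement list, the 3 regulators with the largest called increase and the 3 with the largest decrease, the 5 genes most like C3AR1 and its nearest tested neighbor on each side. C5AR1, C5AR2, IRF1, C2, C7, GPR108, EMG1, LPCAT3, AL049629 and the cell type markers printed were named after their values were seen. Alternatives were other pseudocounts and filters, rescaling, no trend, a replicate block, each library left out, stricter peaks and a reciprocal overlap of 50%.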

Additional observations from a re-analysis of the deposited data

How the results depend on the processing

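The log2 fold change of C3AR1 was 2.49 with a pseudocount of 1, 3.18 with 0.01 and 3.03 after each library was rescaled by its median ratio, which moved the median of all tested genes from 0.09 to 0.02. The wider complement list had 5 genes higher with no filter on low values, C2 and C7 being added, and 1 lower with a filter of 1 FPKM, since ITGB2 was then not tested. ITGB2 was at -0.74 with a pseudocount of 1 and -1.995 with 0.01. After rescaling 5 regulator genes were higher. No refitted fold change turned direction among the 8 genes, the tested genes of the wider complement list and the named regulators other than IRF1. The same held for FOXJ2, NECAP1 and the genes most like C3AR1. Fold changes under the alternatives were not compared for the other regulators, IRF1 among them, the markers and the medians of neighboring genes. C1S and SERPING1 were fitted only without the filter, where SERPING1, listed at 0 in shALKBH5, was called lower and nothing is read from it. With 1 library left out at a time, 6871 to 7832 genes were called, 3 to 3 and 2 to 2 genes of the wider complement list were higher and lower, 6 to 7 and 4 to 5 regulator genes were higher and lower, and C3AR1 lay between 3.08 and 3.12. ITGAX passed without the trend (adjusted p = 0.022 by limma). Replicate numbers did not pair the libraries (correlations of deviations 0.018, -0.046 and 0.059 for numbers 1, 2 and 3). With a replicate block 7271 genes were called instead of 7917, the wider complement list kept its counts of 3 and 2, 6 regulator genes instead of 7 were higher, and CD46 was no longer called. Of the peaks of the 8 genes, 14 of 18 in shALKBH5 and 11 of 15 in shCtrl cells passed a stricter limit (fold enrichment 2 or more, FDR 0.01 or less), and 61.1% and 73.3% matched by a reciprocal overlap of 50%. The shares of all peaks under these limits were not computed, so nothing is read from these values. Without read counts, values near 0 such as those of C1S and SERPING1 carry no counting error.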
